A study of Mus musculus with 4 samples.

Results

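The chondrocytes of the 3-month-old spine were compared between the library labelled mutant and the library labelled control. Cells were taken as chondrocytes when they held more than 750 unique molecular identifiers (UMIs, one for each captured RNA molecule), more than 500 genes, less than 7% mitochondrial counts, at least 1 UMI of Sox9 and at least 3 UMIs of Acan. This left 939 chondrocytes among the 1201 cells of both libraries that passed the first 3 limits, with 562 of 717 under the control label and 377 of 484 under the mutant label. The study placed Cre recombinase in the Prss56 locus and sorted cells carrying tdTomato from T11 to L2 vertebrae of mice at 3 and at 12-16 months, with 1 library for each label and age. All mice carried 2 R26tdTom alleles. Control mice had the genotype Prss56Cre/+;R26tdTom/tdTom;Nf1+/+ and mutant mice Prss56Cre/Cre;R26tdTom/tdTom; Nf1fl/fl, so that the Nf1 genotype and the number of Cre alleles, 1 or 2, cannot be told apart. Cre acts where Prss56 is or was switched on, so tdTomato also stays on in daughter cells, and other cells of the mutant mice keep their Nf1 alleles. Muscle, spinal cord and dorsal root ganglia had been removed before digestion with collagenase and dispase, and living cells negative for CD11b, CD31 and CD45 were collected. How many mice went into a library is not given in the sources used here.

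Chondrocytes build and maintain cartilage by secreting type II collagen, aggrecan and smaller matrix proteins, a load that rests on protein folding in the endoplasmic reticulum. In the spine they form the cartilage endplates, the inner part of the disc and the growth plates, where they enlarge, mineralize their matrix and give way to bone. Nf1 encodes neurofibromin, which returns RAS from its active to its inactive state and thereby dampens signalling through the ERK kinases. Chondrocytes also answer glucocorticoids, hormones that enter the cell and act through a receptor on target genes.

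Each label had 1 library, so no test was possible and the intervals given (exact, 95%) cover counting error only. Values are sums of a gene's UMIs over the cells of a library, and counts per 1000000 UMIs of those cells (CPM), and every ratio is the mutant label over the control label. The 4 libraries held 89 to 562 chondrocytes with a median of 8670.5 to 13677 UMIs, and no barcode was shared between libraries. The 10 chondrocyte markers that the rule did not use, such as Hapln1 and Snorc, were all found in the selected cells at higher levels than in the remaining passing cells of the same 3-month library, by the smallest margin for Col11a2 in the control library, at 555 against 546 CPM. Of 37 markers of bone, marrow, blood, vessel, muscle, nerve, notochord and tendon cells, 8 had no UMI in each library, and the immune marker Ptprc had none in either. The summed level of these 37 was 923 CPM under the control label and 1274 CPM under the mutant label. Scrublet called 2 chondrocytes as doublets in each 3-month library. UMIs of Y-linked genes were found in 59 chondrocytes of the control library and in 3 of the mutant library, while Xist had UMIs in 469 and 373. Y-linked UMIs without Xist were found in 53 control and 0 mutant chondrocytes, and at least 3 Y-linked UMIs in 25 and 0. The sex of the cells was thus not balanced between the labels.

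Nf1 (ENSMUSG00000020716, chr11:79339693-79581612 on the plus strand of GRCm38) had 1104 UMIs or 134 CPM in the 3-month chondrocytes labelled control and 934 or 159.8 CPM in those labelled mutant. The ratio was 1.20 (1.09 to 1.31), and at 12-16 months 190 and 356 UMIs gave a ratio of 0.856 (0.716 to 1.03). Nf1 RNA was thus not lower under the mutant label at 3 months. Reads of this chemistry come from the 3′ end of the RNA, and counts over the whole gene do not show whether the floxed exons were lost, so Nf1 does not check the labels.

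The first question was what the 2 libraries were made of. Cells with a sum of at least 3 UMIs of Ihh, Panx3, Prkg2 and Col10a1 are called hypertrophic-type here, and other cells with at least 3 UMIs of Zfp804b and Dab1 endplate-type. Hypertrophic-type cells were 90 of 562 chondrocytes (16.0%, 13.1 to 19.3) under the control label and 127 of 377 (33.7%, 28.9 to 38.7) under the mutant label. Endplate-type cells were 16 (2.85%, 1.64 to 4.58) and 52 (13.8%, 10.5 to 17.7). The remaining cells were assigned by disc marker sums of at least 3 UMIs, in a fixed order. Cells with this sum for Sfrp5 and Adamtsl2 came first and are called Sfrp5-led, whatever their other sums. Next came Prg4, Smoc2 and Cilp2 (Prg4-led), then Chrdl2 and Meox2. Of the Sfrp5-led cells, 107 of 130 control and 43 of 48 mutant cells also reached the sum of Prg4, Smoc2 and Cilp2. Prg4-led cells were 306 (54.4%) and 134 (35.5%), and Sfrp5-led cells 130 (23.1%) and 48 (12.7%). The shares of Prg4-led and Sfrp5-led cells were therefore lower under the mutant label, by more than the counting intervals. Those of hypertrophic-type and endplate-type cells were higher by more than these intervals. Cells led by Chrdl2 and Meox2 were 1 and 2, too few to place. The sort, the digestion and the number of mice could set these shares, and their part was not tested.

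**Figure D1:**
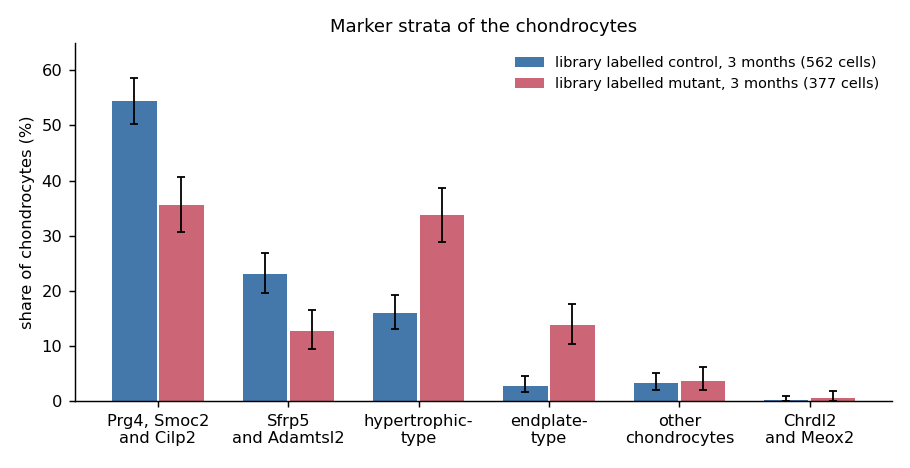
Share of chondrocytes in each marker stratum (y axis, percent) for the 3-month libraries labelled control (562 cells, blue) and mutant (377 cells, red). Bars are shares and whiskers exact 95% binomial intervals; hypertrophic-type cells made up 16.0% and 33.7%, and endplate-type cells 2.85% and 13.8%.

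In droplets free RNA can give a cell UMIs of a gene that it does not express. Among immune-type cells, which had Ptprc and no Sox9, 0 of 13 in the control library (median 1242 UMIs) and 0 of 42 in the mutant library (median 12018 UMIs) reached either sum. The name hypertrophic-type did not hold for all of the cells under either label. Cells carrying disc markers are, here and below, those with at least 3 UMIs of Prg4, Smoc2 and Cilp2 together. Sfrp5, Adamtsl2, Chrdl2 and Meox2 were not used for this, so cells without disc markers can still carry them. Under the control label 54 of 90 carried disc markers and 58 reached the sum through Col10a1 alone. Under the mutant label these were 14 and 8 of 127. There 119 cells had UMIs of Prkg2, but only 30 had Col10a1, and 88 had the endplate marker Zfp804b. In the control cells these were 31, 66 and 12 of 90. Prg4, the lubricant proteoglycan of cartilage surfaces, stood at 11241 CPM in the control cells of this name and at 986 CPM in the mutant cells. Of the endplate-type cells, 2 of 16 and 7 of 52 carried disc markers. The ratio within hypertrophic-type cells therefore compares unlike mixtures, and the main comparison left out both kinds of cell. The 456 and 198 chondrocytes that remained are called composition-held. They held 306 and 134 Prg4-led cells, 130 and 48 Sfrp5-led cells, 19 and 14 cells with neither sum, and 1 and 2 led by Chrdl2 and Meox2. The 37 markers of other cell types summed to 459 and 345 CPM in them, with 12 and 18 at 0.

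Over all chondrocytes, 9851 genes had at least 100 UMIs in the 2 libraries together. Of these 1983 (20.1%) were higher under the mutant label by a fold of 1.5 or more and 1343 (13.6%) lower. With edgeR's TMM factors in place of the library totals, 1642 were higher and 1678 lower. In composition-held cells 8130 genes had enough UMIs, and 534 (6.57%) were higher and 756 (9.3%) lower. Of the 1983 higher genes 324 (16.3%) were also among the 534, of which they were 60.7%, and of the 1343 lower genes 464 (34.6%) were among the 756 (61.4%). Most genes past the fold over all chondrocytes were thus within it, or had too few UMIs, once the 2 kinds of cell were left out. Fewer cells of a kind and less RNA per cell cannot be told apart in the summed values.

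Which gene groups moved with the mixture is seen in the plot of list medians. Of all genes, 20.1% were higher and 13.6% lower over all chondrocytes, and 6.57% and 9.3% in composition-held cells. Counts of list members at 3 months are to be read beside these shares. All 7 cartilage collagens had higher levels under the mutant label over all chondrocytes, with a median log2 ratio of 0.73 beside 0.07 over all genes. In composition-held cells the median was -0.25 beside -0.01, and 0 of 7 were higher by the fold. Skeletal transcription factors had 12 of 20 members higher before and 6 of 17 after, with medians of 0.77 and 0.29. Axon guidance and neural adhesion genes went from 9 of 17 to 5 of 14. All 8 disc subtype markers were lower before, with a median of -1.15, and 1 of 8 was lower after. The 12 glucocorticoid targets did not follow this pattern, since their median was 0.70 in both cases, but in hypertrophic-type cells alone 5 of 11 were higher, 3 were lower and the median was -0.31 (0.62 without the cells carrying disc markers).

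**Figure D2:**
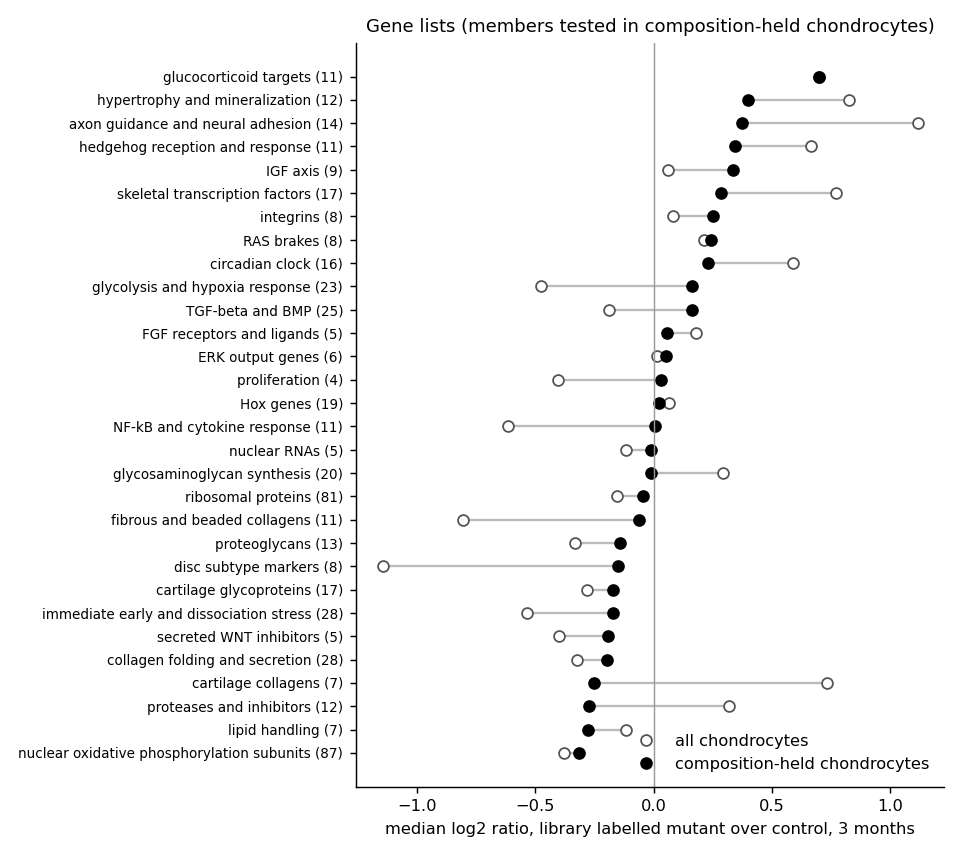
Median log2 ratio of mutant over control label (x axis) of each gene list at 3 months, in all chondrocytes (open circles) and composition-held chondrocytes (filled circles); numbers after the names are members with at least 100 UMIs in composition-held cells. The glucocorticoid targets lie at 0.70 in both, and the cartilage collagens at 0.73 and -0.25.

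Glucocorticoid targets had the highest median of the lists with at least 10 measured members in composition-held cells. There 7 of 11 measured members were higher by the fold, 0 were lower and the median was 0.70, where 6.57% of all genes were higher and 9.3% lower. Fkbp5 (ENSMUSG00000024222, chr17:28399094-28517527), a chaperone partner that limits the glucocorticoid receptor, had 88 UMIs or 13.7 CPM under the control label and 271 or 119 CPM under the mutant label. UMIs of it were found in 49 of 456 control and 93 of 198 mutant cells, and the ratio was 8.64 (6.77 to 11.1). Tsc22d3, which encodes the anti-inflammatory protein GILZ, had 303 and 791 CPM. Its ratio was 2.61 (2.45 to 2.79). Zbtb16 (ENSMUSG00000066687, chr9:48654297-48836222), a zinc finger transcription factor, had 50.9 and 173 CPM with a ratio of 3.39 (2.92 to 3.94).

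The metallothioneins, small proteins that bind zinc and copper, were also on this list. Mt2 had 201 CPM under the control label and 635 under the mutant label, giving 3.17 (2.94 to 3.42) as its ratio. Mt1 had 827 and 1202 CPM, a ratio of 1.45 (1.39 to 1.52) that did not reach the fold, and over all chondrocytes its ratio was below 1, at 0.757 (0.724 to 0.791). Ddit4, an inhibitor of mTORC1, had 127 and 247 CPM. Errfi1, a feedback inhibitor of the EGF receptor, had 220.2 and 358, and the transcription factor Cebpd 448 and 702. The log2 ratios of these 3 genes were 0.97, 0.70 and 0.65. Klf9, Sgk1 and Per1, which are targets as well, stayed within the fold with log2 ratios of -0.11, 0.21 and 0.44. Pdk4, a kinase that restrains pyruvate use, had 13 and 26 UMIs, too few for the count.

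Fkbp5, Zbtb16 and Tsc22d3 were higher in each of the 5 marker strata. The log2 ratio of Fkbp5 was 2.78 in Prg4-led cells, 3.32 in Sfrp5-led cells, 3.93 in cells with neither sum, 3.22 in endplate-type cells and 4.12 in hypertrophic-type cells. For Tsc22d3 the values ran from 0.87 in endplate-type to 1.47 in Prg4-led cells, and for Zbtb16 from 1.62 in Prg4-led cells to 3.61 in cells with neither sum. Mt2 was unlike them. It was higher in the Prg4-led and Sfrp5-led strata (1.67 and 1.18), had a log2 ratio of -0.39 in hypertrophic-type cells, and had 8 UMIs in control and 0 in mutant endplate-type cells. Ddit4 had log2 ratios of -0.80 in neither-sum and -0.21 in endplate-type cells. Errfi1 was higher in Prg4-led cells (0.97), but had log2 ratios of -0.16, -2.09 and -1.07 in Sfrp5-led, neither-sum and hypertrophic-type cells. Klf9 was lower by the fold in neither-sum and endplate-type cells (-1.47 and -1.51), from 26 and 8 and from 26 and 29 UMIs. In Prg4-led, Sfrp5-led and hypertrophic-type cells it was -0.08, 0.09 and -0.53. In the 12-16-month libraries, which share no cells with the 3-month pair, Fkbp5 had 7 and 80 UMIs in composition-held cells and a ratio of 6.90 (3.20 to 17.7). Zbtb16, Tsc22d3 and Mt2 had log2 ratios there of 1.20, 1.53 and 1.19, and Cebpd of -0.48. In hypertrophic-type cells at 12-16 months Fkbp5, Zbtb16 and Tsc22d3 had log2 ratios of 0.83, 0.44 and 0.61. In endplate-type cells, with 1 control cell, these were -0.43, -0.17 and 1.37.

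**Figure D3:**
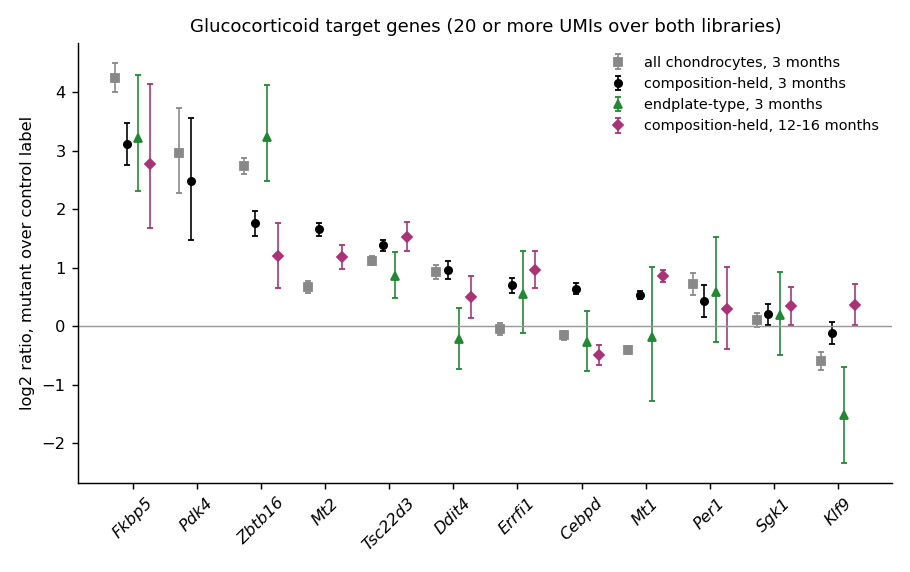
Log2 ratio of mutant over control label (y axis) for 12 glucocorticoid target genes in 4 sets of cells, with exact 95% counting intervals; points with under 20 UMIs over both libraries are left out. Fkbp5 lies at 3.11 in composition-held cells at 3 months and at 2.79 at 12-16 months, while Klf9 lies at -0.11 and 0.37.

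Genes of protein folding in the endoplasmic reticulum went the other way. In the list of collagen folding and secretion, 10 of 28 measured members were lower by the fold in composition-held cells and 1 was higher, with a median of -0.20. Of all genes 9.3% were lower and 6.57% higher. Genes spanning 5 to 20 kb, as Hspa5 does, had a median of -0.19, close to that of the list, and 341 of 2345 were lower. The part of gene length in the list was not tested. Hspa5 (ENSMUSG00000026864, chr2:34771970-34777547), the BiP chaperone that binds unfolded chains in the endoplasmic reticulum, had 5674 UMIs or 885 CPM under the control label and 938 or 411 CPM under the mutant label. The ratio was 0.464 (0.433 to 0.497). Hsp90b1, the HSP90 of this compartment, had 849.5 and 434 CPM, a ratio of 0.510 (0.476 to 0.546). The disulfide isomerases were lower too, with 465 and 201 CPM for Pdia6, 648 and 370.5 for Pdia3 and 144 and 79.7 for Pdia4. Their log2 ratios were -1.21, -0.81 and -0.85. The calcium-binding lectin chaperone Calr had 448 and 264 CPM, a log2 ratio of -0.76, whereas its membrane-bound partner Canx had 193 and 182 CPM and did not reach the fold (-0.09).

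Proteins that act on collagen itself were divided. Ppib, a prolyl isomerase, had 726 and 441 CPM, and Serpinh1, the collagen chaperone HSP47, 342 and 217. P3h1, which hydroxylates prolines of collagen, had 35.4 and 21.5. Their log2 ratios were -0.72, -0.65 and -0.72, but over all chondrocytes that of Serpinh1 was 0.30. P4hb and Plod2, which act in proline and lysine hydroxylation, had log2 ratios of 0.03 and 0.03. Lox, the enzyme that cross-links collagen outside the cell, was the 1 member that was higher. It had 64 UMIs in 30 control cells and 191 in 50 mutant cells, a ratio of 8.38 (6.28 to 11.3). In hypertrophic-type cells its log2 ratio was -1.19.

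The lower level of Hspa5 was found in every stratum, at log2 ratios of -1.09, -1.06, -1.30, -1.22 and -1.16 in Prg4-led, Sfrp5-led, neither-sum, endplate-type and hypertrophic-type cells. Pdia6 ran from -1.20 in Prg4-led to -0.67 in endplate-type cells. The fold was not reached by every folding gene in every stratum. In endplate-type cells Hsp90b1 had 94 and 282 UMIs and a log2 ratio of -0.09, and Pdia4 had 27 and 64 UMIs and one of -0.43. Pdia3 and Pdia4 were at -0.31 and -0.19 in neither-sum cells, and Calr at -0.50 in Sfrp5-led cells. At 12-16 months the composition-held log2 ratios were -0.04 for Hspa5, 0.02 for Hsp90b1, -0.34 for Pdia6 and 0.34 for Calr, so none of the 4 reached the fold there. Whether the 2 ages differ was not tested.

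**Figure D4:**
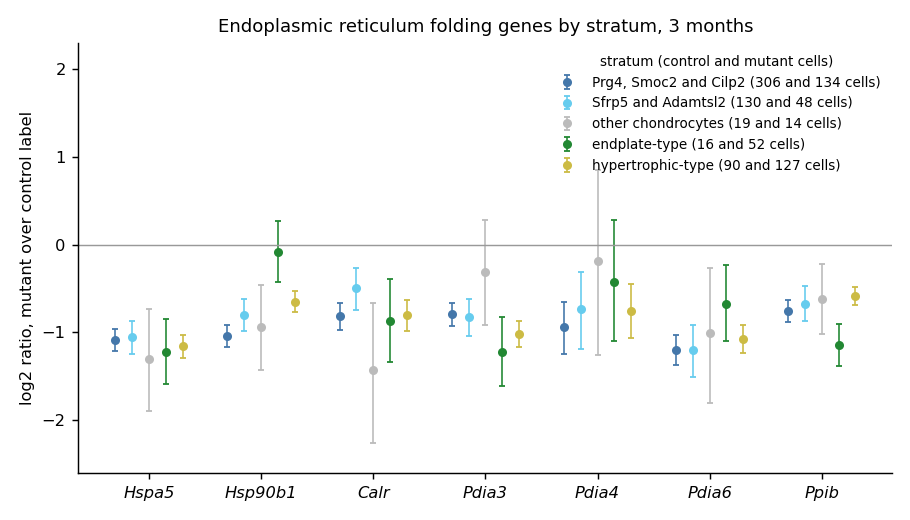
Log2 ratio of mutant over control label (y axis) of 7 endoplasmic reticulum folding genes in each marker stratum of the 3-month chondrocytes, with exact 95% counting intervals. Hspa5 lies between -1.30 and -1.06 in the 5 strata, and Hsp90b1 at -0.09 in endplate-type cells.

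Many folding genes share a promoter element through which they are switched on when unfolded protein builds up, the endoplasmic reticulum stress element. Its letters, CCAAT and CCACG with 9 bases of any kind (N) between them, were searched on both strands of the RefSeq promoter windows of GRCm38.p6, from 250 bases before to 50 after each annotated start. They occurred in 39 of 32851 windows (0.119%), belonging to 37 symbols. Of the 31 members of the folding list 24 had a window, and 5 of these held the element. The 250 bases before the start are shown 5′ to 3′ on the gene's strand for 3 of them that were lower and for Canx, which was not, with the letters of each match in capitals (on the opposite strand CGTGG comes before ATTGG).
Hspa5, chr2:34771840-34772089, plus strand: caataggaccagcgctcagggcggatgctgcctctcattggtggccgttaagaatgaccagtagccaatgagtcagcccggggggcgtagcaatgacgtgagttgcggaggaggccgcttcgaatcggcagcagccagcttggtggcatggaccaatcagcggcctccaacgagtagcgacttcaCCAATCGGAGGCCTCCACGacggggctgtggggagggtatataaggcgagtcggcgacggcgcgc
Pdia6, chr12:17266339-17266588, plus strand: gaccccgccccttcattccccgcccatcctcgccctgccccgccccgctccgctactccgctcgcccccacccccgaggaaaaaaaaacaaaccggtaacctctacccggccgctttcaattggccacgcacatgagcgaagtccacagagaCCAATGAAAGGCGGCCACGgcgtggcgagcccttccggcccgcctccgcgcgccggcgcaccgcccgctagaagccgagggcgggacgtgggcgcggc
Hsp90b1, chr10:86705445-86705694, minus strand: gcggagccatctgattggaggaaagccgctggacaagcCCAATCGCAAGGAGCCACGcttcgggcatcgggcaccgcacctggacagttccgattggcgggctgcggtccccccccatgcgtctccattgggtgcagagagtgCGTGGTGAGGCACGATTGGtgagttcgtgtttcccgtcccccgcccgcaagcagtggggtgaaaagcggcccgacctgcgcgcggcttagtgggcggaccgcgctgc
Canx, chr11:50325674-50325923, minus strand: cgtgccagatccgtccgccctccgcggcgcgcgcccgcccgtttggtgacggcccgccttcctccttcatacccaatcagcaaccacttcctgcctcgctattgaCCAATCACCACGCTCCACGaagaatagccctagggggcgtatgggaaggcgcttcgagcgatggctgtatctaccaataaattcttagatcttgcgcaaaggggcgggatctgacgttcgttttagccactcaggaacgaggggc

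The match began 65 bases before the start in Hspa5, 98 in Pdia6 and 145 in Canx. In Hsp90b1 there were 2 matches, the first 212 bases before the start. Calr held the element 162 bases before its start. Of the folding members with the element 4 of 5 were lower by the fold in composition-held cells, and of the 17 measured members with a window but no match 5 were lower. Over all genes, 11 of the 37 symbols had at least 100 UMIs, and 5 of them (45.5%) were lower, with a median of -0.46. These 5 include the 4 folding genes whose low values prompted the search, and of the 6 measured symbols outside the folding list 1 was lower, with a median of -0.07. Of the 6493 measured symbols with windows and no match 9.01% were lower, with a median of -0.01. That 1 was Creld2, a further chaperone named after its values were seen, had 359 and 64 UMIs, or 56.0 and 28.0 CPM. Adcy3 and Spats2l had log2 ratios above 0. A match is a description of these letters and not of a bound factor.

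Among matrix genes, Col2a1, the main collagen of cartilage, depended on which cells were summed. Over all chondrocytes it had 4096 CPM under the control label and 4712 under the mutant label, and in composition-held cells 2950 and 1704. The log2 ratios were 0.20 and -0.79, and -0.83 in composition-held cells at 12-16 months. Within strata it was -1.10 in Prg4-led, -0.27 in Sfrp5-led, -0.35 in neither-sum, -0.98 in endplate-type and -0.14 in hypertrophic-type cells. At 12-16 months it was 1.81 in Sfrp5-led cells, from 101 and 484 UMIs, and -1.28 in Prg4-led cells. Col9a3 was the other collagen of the list that was lower by the fold, with 427 and 277 CPM. Col11a1 and Col11a2, which set the width of the fibrils, had log2 ratios of -0.25 and -0.13.

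Of 13 proteoglycans and related proteins 0 were higher and 2 were lower in composition-held cells. The 2 were Epyc, a small leucine-rich proteoglycan, with 128 and 14 UMIs, and Lum, which binds collagen fibrils, with 175 and 38. Prg4 had 24052 and 23217 CPM, a log2 ratio of -0.05 where over all chondrocytes it was -1.13. Chad, an adhesion protein of cartilage, had 6619.5 and 9071 CPM and a log2 ratio of 0.45. It lay between 0.43 and 1.44 in all 5 strata.

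Thbs1 stood out among 17 glycoproteins. This thrombospondin, which binds matrix and can release TGF-beta from its latent form, had 2145 UMIs or 335 CPM in control and 3210 or 1406 CPM in mutant composition-held cells. The ratio was 4.20 (3.98 to 4.44). The log2 ratio was 2.06 in Prg4-led and 2.83 in Sfrp5-led cells, 1.46 in endplate-type cells and 1.26 in hypertrophic-type cells. At 12-16 months that of Thbs1 was 0.67 in composition-held cells but -1.46 in hypertrophic-type cells, from 285 and 316 UMIs. In Prg4-led and Sfrp5-led cells it was then 0.62 and 0.90, and in endplate-type cells, with 1 control cell, 1.59. Its relative Thbs2 had 170 and 123 UMIs and a log2 ratio of 1.02. Snorc, a membrane proteoglycan of cartilage, had 4495 and 2318 CPM, and Scrg1 627 and 343. Their log2 ratios were -0.96 and -0.87, and 0.30 and -0.02 at 12-16 months.

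Some of the lowest values came from single cells of the control library. Mmp13, the collagenase of hypertrophic cartilage and bone, had 784 UMIs under the control label and 0 under the mutant label in composition-held cells, but 771 of the 784 lay in 1 control cell of 62489 UMIs. The same cell held 7893 of 13570 UMIs of Spp1, 1091 of 1578 of Ibsp and 196 of 243 of Tnc, all genes of bone or mineralizing matrix, and 91 UMIs of Prg4. A second cell of 48936 UMIs held 347 of 382 UMIs of Cxcl12, a chemokine of marrow stroma with 2 UMIs under the mutant label, and 240 of 427 of Igfbp4. Neither was called a doublet. Without these 2 cells the log2 ratio of Spp1 was 1.63 where it was 0.37 with them, and that of Ibsp 1.33 where it was -0.36. Tnc then had 11 UMIs under the control label and 2 under the mutant label. Col1a1 was lower either way, at -3.06 and -4.08, with 428 and 9 UMIs in all.

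Receivers of the hedgehog signal, which in cartilage comes from Ihh, were higher as a group over all chondrocytes (8 of 12 members) and less so in composition-held cells (4 of 11, median 0.34). Of all genes 20.1% and 6.57% were higher in these 2 sets of cells. Boc, a co-receptor, had 68.3 and 159 CPM, a ratio of 2.32 (2.01 to 2.67), and log2 ratios of 0.57 to 1.56 over the 5 strata. Hhip, which binds and sequesters hedgehog and is itself a target, had 360 and 222 UMIs and a log2 ratio of 0.79. The receptor and target Ptch1 had 77.9 and 119 CPM (a log2 ratio of 0.61, but -0.22 with cells thinned to 3000 UMIs), and the transcription factor Gli2 97.5 and 149. Gli1, a further target, had 118 and 56 UMIs and a log2 ratio of 0.41 (-0.07 to 0.88), within the fold. At 12-16 months the log2 ratios of Boc and Ptch1 were -0.07 and 0.42. Within strata at 3 months Ptch1 stayed within the fold in Prg4-led and Sfrp5-led cells, at 0.35 and 0.20. In cells with neither sum it was 0.90, from 56 and 89 UMIs, and in endplate-type and hypertrophic-type cells 0.25 and 1.06.

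TGF-beta and BMP genes went in both directions. Of 25 measured in composition-held cells 5 were higher and 5 lower, beside 6.57% and 9.3% of all genes. Those higher were the receptors Tgfbr1 (121 and 254 CPM), Tgfbr3 (592 and 959) and Acvr1 (55.1 and 86.7), the ligand Bmp2 (87.5 and 139) and the inhibitory Smad6 (96 and 52 UMIs). In endplate-type and hypertrophic-type cells the log2 ratio of Tgfbr1 was -0.84 and -0.69. Those lower included the BMP antagonists Grem1 and Chrd and the joint ligands Gdf5 and Gdf6. Grem1 had 4081 UMIs or 637 CPM under the control label and 525 or 229.9 CPM under the mutant label. The ratio of Grem1 was 0.361 (0.329 to 0.395). It was lower in all 5 strata, from -0.91 in cells with neither sum to -2.41 in hypertrophic-type cells. At 12-16 months its log2 ratio was -0.49 in composition-held cells, with -0.23 in Prg4-led and -1.19 in Sfrp5-led cells. In hypertrophic-type cells it was then 0.97, from 36 and 215 UMIs. Gdf6 had 116 and 13 UMIs, Gdf5 167 and 34 and Chrd 119 and 21. The fifth, Fstl1, had 201 and 25.

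Most measured brakes on RAS and genes switched on by ERK stayed within the fold in composition-held cells. So did most of all genes, of which 6.57% were higher and 9.3% lower. In endplate-type and hypertrophic-type cells 2 and 4 genes switched on by ERK could be measured, with medians of -0.90 and 0.42. Without the cells carrying disc markers 2 and 3 could be measured, with medians of -0.47 and -0.51. Of 8 measured brakes on RAS, 7 stayed within the fold in composition-held cells and the median was 0.24. The exception was Spred2, which recruits neurofibromin to the membrane, with 176 and 114 UMIs and a log2 ratio of 0.86. Its relative Spred1 had 701 and 266 UMIs and a log2 ratio of 0.09. Of 6 measured genes switched on by ERK, Spry2, a feedback inhibitor, was higher with 252 and 171 UMIs and a log2 ratio of 0.93, and the median of the 6 was 0.05. Etv5 and Phlda1 had log2 ratios of 0.08 and 0.02. Dusp6, a phosphatase of ERK, had 97 and 41 UMIs and a log2 ratio of 0.25 (-0.32 to 0.79), and Dusp4 had 3 and 0. In the IGF list Igf1r, the receptor, had 160.4 and 269 CPM, and its log2 ratio was 0.75 at 3 months and 0.07 at 12-16 months.

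Transcription factors of the skeleton were higher rather than lower, with 6 of 17 past the fold and 0 below it in composition-held cells. Besides Zbtb16 these were Runx3 (78 and 50 UMIs), Runx2, which drives hypertrophy and bone formation (129 and 77), Foxo3 (249 and 149), Foxp1 (1351 and 761) and Foxo1 (1553 and 842). The log2 ratio of Runx2 was 0.74 here and 2.17 over all chondrocytes. It was -0.79 in composition-held cells at 12-16 months, from 25 and 24 UMIs.

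Genes of hypertrophy and mineralization had a median of 0.40 in composition-held cells, with 4 of 12 higher and Mmp13 lower. Alpl, the phosphatase that frees phosphate for mineral, had 30.3 and 71.4 CPM and a ratio of 2.36 (1.90 to 2.92). Mgp, an inhibitor of calcification, had 1617 and 2719 CPM and log2 ratios of 0.75 at 3 months and 1.27 at 12-16 months. Over all chondrocytes its level was 4540.5 and 20327 CPM. Among proteases and their inhibitors, the aggrecanase Adamts5 had 137 and 166 UMIs, a ratio of 3.40 (2.70 to 4.30). Timp4 had 138 and 404 CPM and Timp1, a second inhibitor of matrix metalloproteinases, 202 and 37.7. Their log2 ratios were 1.55 and -2.42, and 1.48 and -1.12 at 12-16 months, but in hypertrophic-type cells that of Timp4 was -1.30 at 3 months. That of Timp1 in hypertrophic-type cells was -5.49 at 3 months but 3.02 at 12-16 months, from 7 and 173 UMIs.

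Immediate early and dissociation stress genes had 14 of 28 members lower over all chondrocytes, where 13.6% of all genes were lower. In composition-held cells 3 were lower and 3 higher, beside 9.3% and 6.57% of all genes. There the transcription factors Atf3, Ier2 and Myc were lower, at log2 ratios of -0.70, -0.63 and -0.78. The chaperones Hspa1b and Hspb1 and the factor Cebpd were higher, at 0.91, 0.98 and 0.65. Fos had 6709 and 5391 CPM, a log2 ratio of -0.32 within the fold. These genes respond to tissue digestion, and their part in the other ratios was not tested. Of the circadian clock genes 4 of 16 were past the fold. The activators Arntl (111 and 92 UMIs) and Npas2 (88 and 100) were higher, and Dbp (701 and 86) and Bhlhe40 (2198 and 364) lower. Dbp, an output of the clock, had a log2 ratio of -1.54 here, of -1.42 at 12-16 months and of 0.22 in hypertrophic-type cells. The hour of collection is not given in the sources used here.

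Glycolysis and hypoxia response genes were lower over all chondrocytes (10 of 25, median -0.48) but not in composition-held cells, where 5 of 23 were higher, 0 lower and the median was 0.16. Ldha, which makes lactate, had 729 and 403 CPM over all chondrocytes and 771 and 822 in composition-held cells, with log2 ratios of -0.85 and 0.09. In hypertrophic-type and endplate-type cells it was -2.05 and -2.26. The 5 that were higher were the hexokinase Hk2, the carbonic anhydrase Car9, the hypoxia sensor Egln3, the vessel growth factor Vegfa and Ndrg1, at log2 ratios of 0.87, 1.02, 1.55, 0.74 and 0.61. Nuclear genes of oxidative phosphorylation had a median of -0.31, and 6 of 87 were lower by the fold, no larger a share than the 9.3% of all genes. The 13 mitochondrially encoded genes had a median of 0.08. At 12-16 months the medians were 0.11 and 0.36.

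Of the remaining lists most had medians close to that of all genes in composition-held cells. Glycosaminoglycan synthesis had 2 of 20 members higher, Csgalnact2 (441 and 808 CPM), which starts chondroitin sulfate chains, and Ndst1. Among 8 integrins Itga10 (113 and 206 CPM), a collagen receptor of chondrocytes, and Itga5, a fibronectin receptor, were higher and Itga6 was lower. Axon guidance and neural adhesion genes had 5 of 14 higher, namely Slit3, Ncam1, Unc5b, Unc5c and Ntn1, at log2 ratios of 0.89 to 0.98, and Sema3e and Ncam2 lower. The 5 measured secreted WNT inhibitors all stayed within the fold, as did the 4 measured proliferation genes. Of 11 measured genes of the NF-kB and cytokine response, Lcn2 (146 and 381 UMIs) and C3 were higher and Cxcl1 (466 and 42) lower. In the mutant library 95 UMIs of Lcn2 came from 1 cell, and without the richest cell of each library its log2 ratio was 2.53. In hypertrophic-type cells it had 15 and 9 UMIs and a log2 ratio of -1.54. Of 19 Hox genes 1 was higher and 0 were lower.

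The genes that led the composition-held comparison were ranked by the interval bound nearest to a ratio of 1 among those past the fold in all chondrocytes too. Besides Fkbp5, Lox and Lcn2, the 12 highest included 4 gene models that have only a number for a name. Gm10260 had 1 and 170 UMIs, a ratio of 477 (84.5 to 18953), Gm8797 34 and 463 and Gm11361 14 and 193. Gm42418, which overlaps ribosomal RNA sequence, had 6217 and 26714 CPM. Lars2, a mitochondrial leucyl-tRNA synthetase, had 481 and 2066 CPM. The 4 matrices list the same genes in the same order, but whether the libraries were counted and filtered alike in other respects, or reads of these genes were shared with similar sequence elsewhere, was not tested, and their values are uncertain. The others were AA465934 (16 and 137 UMIs), BC004004 (281 and 601), the serotonin transporter Slc6a4 (30 and 77) and Rbfox1, of whose 90 UMIs under the mutant label 80 lay in 1 cell.

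The 12 lowest were Mmp13, Cxcl12, Tnc, Igfbp4, Igfbp5, Bglap, Col1a1, Rnaset2b, 1520401A03Rik, Sfn, Timp1 and Tpm3-rs7. Igfbp5, a binding protein of IGFs, had 110 and 0 UMIs and was at least 13.1-fold lower when 3 counts are set for the 0, but had 26 and 286 at 12-16 months. Bglap, the osteoblast gene of osteocalcin, had 101 UMIs, 68 of them in the Mmp13-rich cell, and 0. Values of 1520401A03Rik were 358 and 46.4 CPM, from 156 of 456 and 24 of 198 cells, and those of Sfn were 206 and 7 UMIs. Rnaset2b (334 and 7 UMIs) has a near-identical neighbour and Tpm3-rs7 (415 and 23) a parent gene with which reads may be divided.

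Several of these genes lie on chromosome 17, as Fkbp5 does. Of the 133 measured genes between 6 and 30 Mb of this chromosome, a window chosen after the values were seen, 17 (12.8%) differed by a fold of 2 or more in either direction, beside 275 of 8130 (3.38%) over all genes. Within 5 Mb of Nf1 on chromosome 11 it was 4 of 74 (5.41%), and within 5 Mb of Prss56 on chromosome 1 it was 0 of 35. At the lower fold used elsewhere, 9 of 35 genes near Prss56 (25.7%) were past it, and 14 of 74 near Nf1 (18.9%). The chromosome 17 window then had 32 of 133 (24.1%), and all genes 1290 of 8130 (15.9%). At that fold the share near Prss56 was no lower than that of the chromosome 17 window. Rps2, a ribosomal protein gene on chromosome 17 that was outside the naming rule and was chosen after its values were seen, had 10701 UMIs under the control label and 111 under the mutant label. Its log2 ratio lay between -5.55 and -5.09 in the 5 strata and was -1.29 at 12-16 months, while 78 of 81 ribosomal protein genes stayed within the fold. Rps2 has many processed copies in the mouse genome, and how they entered the counts of each library was not tested, so its value is uncertain as well.

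Endplate-type cells were compared in the same way, with 16 control cells holding 228376 UMIs and 52 mutant cells holding 727491. Of 1704 genes 377 (22.1%) were higher and 231 (13.6%) lower. Without the cells carrying disc markers 319 of 1368 genes (23.3%) were higher and 182 (13.3%) lower. Ccn2, a matricellular protein that chondrocytes make under load, had 63 and 1707 UMIs, a ratio of 8.51 (6.61 to 11.1), and its log2 ratio in composition-held cells was 0.94. Zbtb16 had 14 UMIs under the control label and 422 under the mutant label, with UMIs in all 52 mutant cells. Fkbp5 had 10 and 297 UMIs, and the synaptic scaffold gene Dlg2 9 and 278. The fifth of the highest was Gm8797. Dlg2 and Zbtb16 span over 100 kb and Ccn2 under 5 kb.

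Of the 5 lowest in endplate-type cells 3 had most of their control UMIs in 1 cell. The richest control cell of each gene held 154 of the 156 UMIs of Cilp, 104 of the 105 of Gas1 and 71 of the 94 of Vcan. Whether it was the same cell for these genes is not shown by the values. Ier3 and Socs3, which respond to stress and cytokines, had 86 and 30 and 115 and 52 UMIs. Of the 86 control UMIs of Ier3, 48 lay in 1 cell. Immediate early and stress genes were lower as a group in endplate-type cells. There 14 of 23 were lower by the fold, 0 were higher and the median was -0.94 beside 0.07 over all genes. Without the cells carrying disc markers 8 of 22 were lower, 1 was higher and the median was -0.29. Fos had 1160 and 1598 UMIs and Junb 872 and 1452, at log2 ratios of -1.21 and -0.94. Hedgehog receivers had 5 of 7 higher and a median of 0.93, while 7 of 11 cartilage glycoproteins were lower. Collagen folding genes had 6 of 14 lower and 1 higher. Without the cells carrying disc markers these were 5 of 6, 5 of 10 and 7 of 12.

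The 12-16-month libraries gave the same comparison with fewer cells, 68 control and 171 mutant in the composition-held set. There 3275 genes had at least 100 UMIs, 196 (5.98%) were higher by the fold and 213 (6.5%) lower. Of the 534 genes higher at 3 months 211 could be read at both ages, and of these 42 (19.9%) were higher and 18 (8.53%) lower at 12-16 months, while 151 stayed within the fold. Of the 756 lower genes 219 could be read, and 31 (14.2%) were lower and 14 (6.39%) higher. Most of the genes that could be read at both ages thus stayed within the fold in the older pair, and the other genes past the fold at 3 months had too few UMIs there. The glucocorticoid targets had 5 of 9 higher and 0 lower there, with a median of 0.87, the collagen folding list 2 of 26 lower and 1 higher, and the hedgehog receivers 1 of 7 higher. The difference between the ages was not tested.

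Ratios moved with the length of the gene. In composition-held cells at 3 months the median log2 ratio was -0.28 for 850 genes spanning 5 kb or less and -0.19 for 2345 genes of 5 to 20 kb, and went up over the bins to 0.22 for 493 genes over 200 kb. Over all chondrocytes these were -0.40, -0.22 and 0.62. At 12-16 months the composition-held values lay between -0.10 and 0.07 with no such order. Of the 5 nuclear RNAs on the list 0 passed the fold in composition-held cells and their median was -0.01. Malat1 had 24815 and 24653 CPM and a log2 ratio of -0.01, and Neat1 had a log2 ratio of 0.20. The oxidative phosphorylation subunits are mostly short genes and Unc5c and Tgfbr3 are long ones. The part of gene length and of nuclear RNA in these ratios was not tested.

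**Figure D5:**
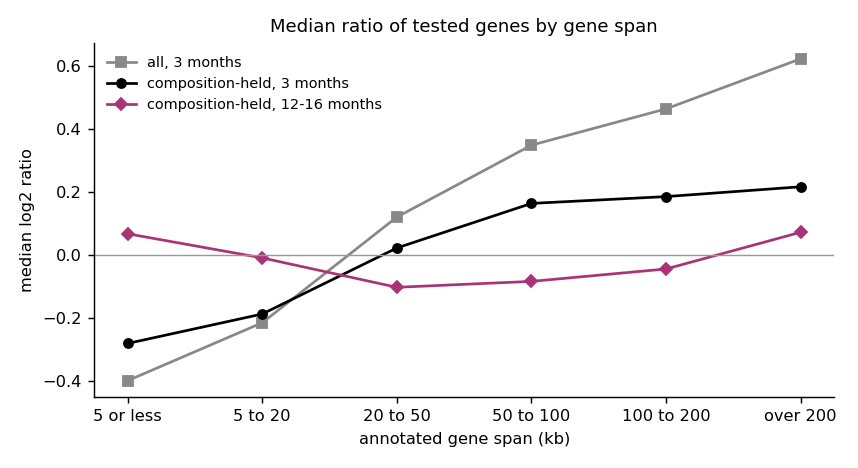
Median log2 ratio of mutant over control label (y axis) of genes with at least 100 UMIs, by annotated gene span in kb (x axis). At 3 months it goes from -0.28 for the shortest to 0.22 for the longest genes in composition-held cells and from -0.40 to 0.62 in all chondrocytes, and at 12-16 months it stays between -0.10 and 0.07.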

How the data were processed

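Single-cell RNA-seq libraries (10x Genomics 3′ kit, v3.1) of 4 sorted samples were analysed, 1 for each label at 3 months and at 12-16 months. The authors deposited filtered gene-by-cell matrices of raw UMI counts, and the submitters' processing notes name Cell Ranger 8.0.0 and the build mm10. Values in CPM were computed here from summed counts. The members and gene lists were chosen with earlier results of these data known.

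Cells passed above 750 UMIs and 500 genes when mitochondrial counts were below 7%, and doublets were called with Scrublet (scanpy 1.11.5, expected rate 6%) and kept. Counts of the 32286 listed genes were summed per library and set of cells, and 38 symbols listed more than once were kept apart by identifier. Ratios are of summed CPM with exact conditional binomial 95% intervals, shares have Clopper-Pearson intervals, and a gene was counted from 100 UMIs over both libraries and as higher or lower from a fold of 1.5. Composition-held cells leave out those with 3 or more UMIs of Zfp804b and Dab1 or of Ihh, Panx3, Prkg2 and Col10a1. Genes named are the list members, the 12 highest and 12 lowest in composition-held cells that also passed the fold in all chondrocytes, and the 5 highest and 5 lowest in endplate-type cells by the same rule, ranked by the interval bound nearest to 1. The ranking took no genes of mitochondria, ribosomal proteins, hemoglobin or the sex chromosomes' Xist and Y-linked set, and not tdTomato.

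Gene positions and spans are from GENCODE vM21 (GRCm38), in which 32235 genes were found, and promoters from RefSeq for GRCm38.p6. Python 3.11.15, numpy 2.4.6, scipy 1.17.1, pandas 2.3.3 and matplotlib 3.10.9 were used, and edgeR 4.0.16 in R 4.3.3 for TMM factors only. The counting and interval code was tested on simulated data. Alternatives changed the scaling, the UMI minimum, the fold, the depth (cells thinned to 3000 UMIs), the weighting of cells and strata, the Acan and marker minimums, and left out doublets and cells without Xist.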

Additional observations from a re-analysis of the deposited data

Results flagged for a closer look

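Among the list members and other named genes with at least 100 UMIs in the 3-month and at least 50 in the 12-16-month composition-held cells, 13 had log2 ratios between the labels that passed the fold in opposite directions at the 2 ages. With 1 library for each label and age this difference was not tested. Epyc, a small proteoglycan of cartilage, was -1.70 at 3 months and 1.78 at 12-16 months, and Cxcl1, a chemokine, was -1.98 and 5.25, the latter from 1 and 63 UMIs. Igfbp5, a binding protein of IGFs, had 110 and 0 UMIs at 3 months, at least 13.1-fold lower with 3 counts set for the 0, and a log2 ratio of 2.73 at 12-16 months. Col12a1, a fibril-associated collagen, was 0.70 and -1.47, and Itga6, a laminin receptor subunit, was -0.88 and 0.63. Tsix, the antisense RNA of Xist, was 0.94 and -2.07. Hk2, the hexokinase, was 0.87 and -1.08, and Igfbp6, which binds IGF2, was 0.64 and -1.23. Il31ra, a cytokine receptor subunit, was 1.87 and -1.46. Il31ra and Cmss1 were chosen after their values were seen. For the last 4 it was not tested whether reads are shared with ribosomal RNA or similar sequence. Gm42418 was 2.10 and -1.89, Lars2 2.10 and -1.63, Cmss1 1.60 and -3.00, and Gm11361 5.27 and -0.77.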

How the results depend on the processing

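No paired analysis was possible because each label had 1 library at each age. Under the alternatives, the ratios of the named genes stayed within their counting intervals in 1369 cases, moved beyond them in 254 and changed direction in 8. When each marker stratum had equal weight the log2 ratios changed direction to -0.14 for Errfi1, 0.16 for Epyc, 0.16 for Lum, -0.22 for Vegfa, -0.44 for Igfbp6, 0.17 for Fstl1 and -0.27 for Unc5c, and with cells thinned to 3000 UMIs that of Ptch1 was -0.22. Genes higher and lower over all chondrocytes were 907 and 586 after thinning, 3037 and 2159 from 20 UMIs, 1231 and 815 from 300 UMIs, and 750 and 437 at a fold of 2. In composition-held cells they were 293 and 285, 1156 and 1702, 257 and 319, and 106 and 169 under the same settings, and 1243 and 1197 with equal weights for strata. In endplate-type cells they were 52 and 50, 1696 and 1221, 92 and 63, and 186 and 77. Thinning and the UMI minimum also change how many genes can be counted, so these counts cannot be read as shares. With TMM factors 1642 genes were higher and 1678 lower over all chondrocytes, where library totals gave 1983 and 1343. Of the lists, 1 had a median of -0.3 or lower among those with enough members, and this became 0 with TMM or with the 20 most abundant genes left out of the totals, 4 with equal weight for cells or after thinning, 3 with at least 10 UMIs of Acan or with marker sums of at least 1, 8 with equal weights for strata and 2 in cells with Xist. Endplate-type cells were 1.63% and 18.9% of control and mutant cells after thinning, and 6.37% of mutant cells with sums of at least 1. Hypertrophic-type cells were 7.96% and 18.1% after thinning and 26.0% and 46.2% with sums of at least 1. The ratio of Nf1 over all chondrocytes kept its direction in all 8 alternatives, from 0.18 to 0.32 (log2), and the order of the shortest and longest genes held in all that were run. Depth limits the endplate-type comparison most, where 1704 genes could be counted, and the older pair, and no alternative can replace a second library of each label.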

Other observations

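At 12-16 months the shares of hypertrophic-type, endplate-type and Prg4-led cells lay closer together, but those of Sfrp5-led cells did not. Hypertrophic-type cells were 20 of 89 chondrocytes (22.5%) under the control label and 80 of 258 (31.0%) under the mutant label, and endplate-type cells 1 (1.12%) and 7 (2.71%). Cells led by Prg4, Smoc2 and Cilp2 were 52.8% and 50.8%. Sfrp5-led cells were 22.5% and 12.8%, beside 23.1% and 12.7% at 3 months.

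Within hypertrophic-type cells at 3 months, whose control and mutant cells differed in their disc markers, Ihh had UMIs in 15 of 90 control and 52 of 127 mutant cells and Prkg2 in 31 and 119. Col10a1, the collagen of hypertrophic cartilage, was found in 66 control and 30 mutant cells. Its level was 2182 CPM under the control label and 712 CPM under the mutant label. These genes belong to the sum that selects the cells, so their values here depend on the selection. Through Col10a1 alone 58 control and 8 mutant cells were selected. Over all chondrocytes, where this sum plays no part, Col10a1 had 435 and 347 CPM.

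Among fibrous and beaded collagens 2 of 11 were higher and 2 lower in composition-held cells at 3 months. Col12a1 and Col16a1, which attach to fibrils, had log2 ratios of 0.70 and 0.61, and Col3a1 one of -1.09 from 131 and 22 UMIs. In the list of lipid handling Plin2, which coats lipid droplets, had 157 and 21 UMIs, while Apod, a carrier of lipids, had a log2 ratio of 0.83 and of -0.43 without the richest cell of each library. Fgfrl1, a decoy receptor of FGFs, was the 1 of 5 measured FGF genes past the fold, with a log2 ratio of -0.67.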
